A study of Danio rerio with 15 samples.

Results

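Genes that drive the cell cycle and copy DNA were followed in whole zebrafish embryos exposed to 1 of 4 PFAS, the per- and polyfluoroalkyl compounds, with a short chain. The 39 genes were taken by their exact symbols from the deposited count table, 24 of them genes of S phase and 15 genes of mitosis. All 39 had an entry among the 47048 gene entries of the table. The filter on low counts was passed by 37 of them, 23 of S phase and 14 of mitosis, and by 23874 entries in all.

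The embryos were of the Tropical 5D wild-type line, dechorionated at 4 hours post fertilization (hpf), exposed from 8 hpf and sampled at 48 hpf. Each of the 5 groups had 3 messenger RNA libraries, and each library held RNA of 10 pooled whole embryos. FBSA is perfluorobutane sulfonamide and PFBS the sulfonic acid with the same chain. PFPeA is perfluoropentanoic acid, and 42FTS is a sulfonic acid of the fluorotelomer kind. Each was given at 47 uM with 0.5% methanol. The control is called untreated in the sample labels, while the treatment protocol gives it as 0 uM under the same methanol normalization. In RNA of whole embryos, more dividing cells and more of these RNAs per cell cannot be told apart. Whether the pools stem from different clutches is not in the labels, and the p-values rest on the scatter among these pools alone.

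A cell enters the cycle when D-type cyclins and their kinases release E2F transcription factors, which switch on genes for cyclin E, origin licensing and DNA synthesis. Origins are licensed by loading the MCM helicase onto DNA, and replication forks then copy the genome with DNA polymerases that slide on the PCNA ring. Cyclin A and cyclin B with their kinases carry the cell on into mitosis, where Aurora kinases and the spindle checkpoint control the separation of chromosomes. In zebrafish embryos of this age much of the division takes place in the growing brain, eye and other tissues that still hold progenitor cells.

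Gene counts per library ranged from 24249287 to 32686343. The shallowest libraries were Control 3 and 42FTS 2, whose unaligned share was 9.92% and 9.94% of reads. That share was 6.32% to 6.73% elsewhere. FBSA 2 stood apart on the first principal component of all tested genes, at 75.1 against 36.5 for FBSA 1 and 34.5 for FBSA 3, while all other libraries lay between -19.6 and 9.05. Levels are given as CPM, the count of a gene relative to the library total as scaled by the trimmed mean of M-values. A gene was called when edgeR's quasi-likelihood test gave a Benjamini-Hochberg adjusted p under 0.05 over all genes tested. The 95% confidence interval (CI) of a log2 change from the control to FBSA reached a median of 0.168 to either side for these genes, against 0.443 for all genes tested. Each CI and standard error (SE) rests on 1 estimate of spread per gene shared by all 5 groups. It can be too narrow where the FBSA libraries scatter more than the others.

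With FBSA, 20 of the 37 tested genes rose against the control and none fell. Of all genes tested 5.28% rose and 4.25% fell in this comparison, 9.53% together. These shares are given beside a list chosen with earlier results of these data known, so the contrast is not an independent test. The genes that rose were 14 of 23 of S phase and 6 of 14 of mitosis. The median log2 change was 0.30 for the S phase genes and 0.23 for the mitosis genes, against 0.01 for all genes tested. An estimate above 0 was found for 35 of 37 genes, against 12104 of 23874 over all. All 3 FBSA libraries lay above all 3 controls for 23 of the 37 genes, as they did for 14.5% of all genes tested. Leaving out Control 1 took the number called to 11, where 3.03% of all genes rose. It was 9 when Control 2 or FBSA 2 was left out, where 3.12% and 2.56% of all genes rose. It was 7 in a fit of the control and FBSA libraries alone, 12 without Control 3 and 42FTS 2, and 13 with adjustment over all 10 pairs of groups. Over all genes 1260 rose, and 606, 734 and 764 did under those 3 settings.

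**Figure D1:**
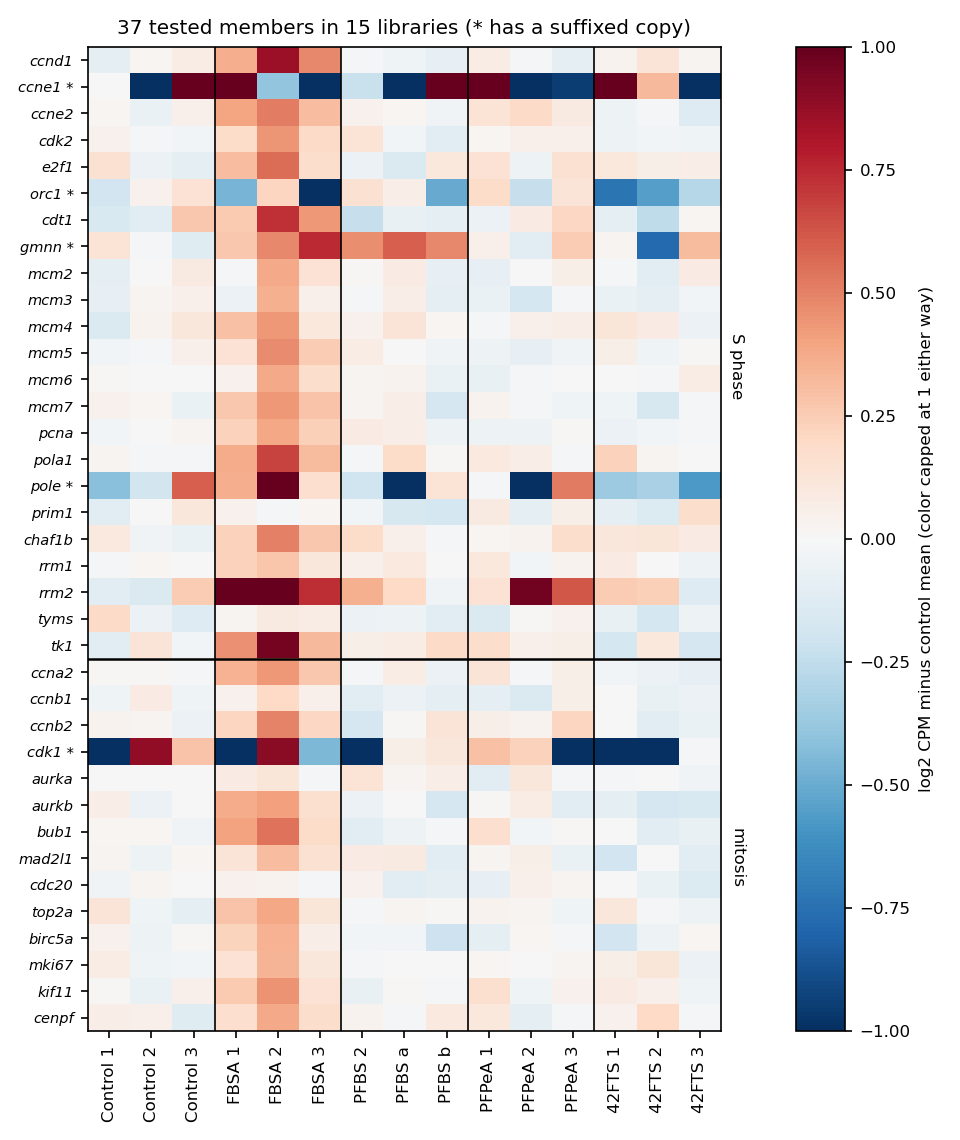
Log2 CPM of each of the 37 tested genes in each of the 15 libraries, as the difference from the control mean, with the color capped at 1 either way and S phase genes above mitosis genes. The 3 FBSA columns are red for most genes without a suffixed copy, most deeply for FBSA 2, and the genes marked with a star, which have a suffixed copy, vary in all groups.

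Among the regulators of entry into S phase, 4 of 5 rose. Cyclin D1 (ccnd1), the partner of the kinases that start the cycle in response to growth signals, was at 286, 309 and 321 CPM in the controls and at 393, 553 and 426 CPM in FBSA 1 to 3. The lowest FBSA library lay above all 12 libraries of the other groups, whose highest was 42FTS 2 at 334 CPM. The log2 change was 0.58 (SE 0.096, adjusted p = 0.00215), which is a 1.5-fold level with a CI of 1.3 to 1.73. The coefficient of variation of ccnd1 was 18.5% among the FBSA libraries and 2.26% to 5.93% within the other groups, a difference that the shared spread does not carry.

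The cyclin E gene ccne2, whose product activates Cdk2 as S phase begins, was at 44.5, 41.9 and 45.6 CPM in the controls. It was at 57.9, 62.8 and 54.4 CPM with FBSA, again above all 12 other libraries. Its log2 change was 0.41 (SE 0.064, adjusted p = 0.00125). The kinase gene cdk2 rose from 36.3 ± 1.0 to 44.1 ± 4.61 CPM (SD, n = 3), a log2 change of 0.28 (adjusted p = 0.0319). The transcription factor gene e2f1 rose from 23.3 ± 2.22 to 29.8 ± 4.13 CPM (SD, n = 3), a log2 change of 0.35 (adjusted p = 0.0437). The calls of the 2 cyclins held in all 15 fits that left out 1 library, that of cdk2 in 11 and that of e2f1 in 5. For cdk2 the call was lost when FBSA 2 or any 1 of the controls was left out. The other cyclin E gene, ccne1, was at under 1 CPM in every library and has a suffixed copy.

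Of the 10 genes that license origins 9 were tested, and 4 of them rose. The 6 MCM genes encode the subunits of the helicase that unwinds DNA at the fork. Of these mcm4, mcm5 and mcm7 rose, with log2 changes of 0.28, 0.30 and 0.33 (adjusted p = 0.0374, 0.0127 and 0.00556). The level of mcm7 was 222, 218 and 206 CPM in the controls and 259.9, 291 and 262 CPM with FBSA. These groups did not overlap, and the FBSA libraries lay above all 12 others. For mcm4 FBSA 3, at 208.1 CPM, lay just below Control 3, at 208.5 CPM. The call of mcm4 was lost without Control 1, Control 2, FBSA 1 or FBSA 2, and that of mcm5 without Control 1. The estimates for mcm2, mcm3 and mcm6 were also above 0, at 0.17, 0.13 and 0.21, but did not pass the test (adjusted p = 0.237, 0.399 and 0.0638). FBSA 2 was the highest of the 15 libraries for all 6 subunits, and without it the estimate for mcm3 was 0.00 (-0.00128).

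The gene of the loading factor Cdt1 rose by a log2 change of 0.48 (SE 0.131, adjusted p = 0.0306). Its control libraries were at 20.6, 21.1 and 27.7 CPM and its FBSA libraries at 27.6, 38.2 and 31.0 CPM, so that Control 3 lay just above FBSA 1. The call was lost without Control 1, Control 2 or FBSA 2. Geminin (gmnn), which binds and inhibits Cdt1 after origins have fired, had a log2 estimate of 0.52 (adjusted p = 0.201), and the origin recognition gene orc1 one of -0.46 (adjusted p = 0.457). Both have a suffixed copy, as does cdc6, a loading factor whose exact entry held at most 6 reads in a library and was not tested.

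At the replication fork 3 of 5 genes rose. The sliding clamp gene pcna was at 495, 503 and 513 CPM in the controls and at 591, 659 and 595 CPM with FBSA, with no overlap. Its log2 change was 0.29 (SE 0.050, adjusted p = 0.00257), and the 9 libraries of the other compounds reached no higher than 534 CPM. The gene of the catalytic subunit of DNA polymerase alpha, pola1, was at 60.6, 58.7 and 58.8 CPM in the controls.

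With FBSA pola1 was at 76.6, 94.9 and 73.8 CPM, a log2 change of 0.46 (SE 0.089, adjusted p = 0.00492). Both calls held in all 15 fits that left out 1 library. The chromatin assembly gene chaf1b, which places histones behind the fork, rose by a log2 change of 0.34 (adjusted p = 0.0143). That call was lost without Control 2, Control 3 or FBSA 2. The gene of the primase subunit that works beside polymerase alpha, prim1, stayed at 31.2 ± 2.53 CPM in the controls and 31.5 ± 0.60 CPM with FBSA (SD, n = 3). Its log2 estimate was 0.02 (CI -0.17 to 0.21, adjusted p = 0.946), an interval that lies below the estimate for pola1. The polymerase epsilon gene pole has a suffixed copy and had an estimate of 0.57 (adjusted p = 0.474).

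Of the 4 genes that supply nucleotides 3 rose. The small subunit gene of ribonucleotide reductase, rrm2, had the highest log2 change of the 37 tested genes, 0.96 (SE 0.201, adjusted p = 0.0132), a fold of 1.94 with a CI of 1.43 to 2.63. Ribonucleotide reductase makes deoxynucleotides, and its small subunit is the one whose level follows S phase in animal cells. The controls were at 119, 116 and 153 CPM and the FBSA libraries at 281, 256 and 215 CPM, with no overlap between the groups. PFPeA 2, at 250.0 CPM, lay above FBSA 3. The call was lost without Control 1, Control 2 or FBSA 2, and the estimate without FBSA 2 was 0.94 (adjusted p = 0.0543).

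The large subunit gene rrm1 rose from 310.1 ± 4.57 to 358 ± 20.6 CPM (SD, n = 3), a log2 change of 0.21 (adjusted p = 0.0227). That call was lost without any 1 of the 3 controls, FBSA 1 or FBSA 2. Thymidine kinase 1 (tk1), which salvages thymidine, was at 26.0, 30.6 and 27.5 CPM in the controls and at 38.5, 54.4 and 35.0 CPM with FBSA. The FBSA libraries of tk1 lay above all 12 others, and its log2 change was 0.60 (SE 0.133, adjusted p = 0.0109). It lost its call without Control 1. Thymidylate synthase (tyms), which makes thymidylate anew, was at 48.6 ± 5.83 and 50.6 ± 1.17 CPM (SD, n = 3), with a log2 estimate of 0.06 (CI -0.11 to 0.22, adjusted p = 0.724).

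**Figure D2:**
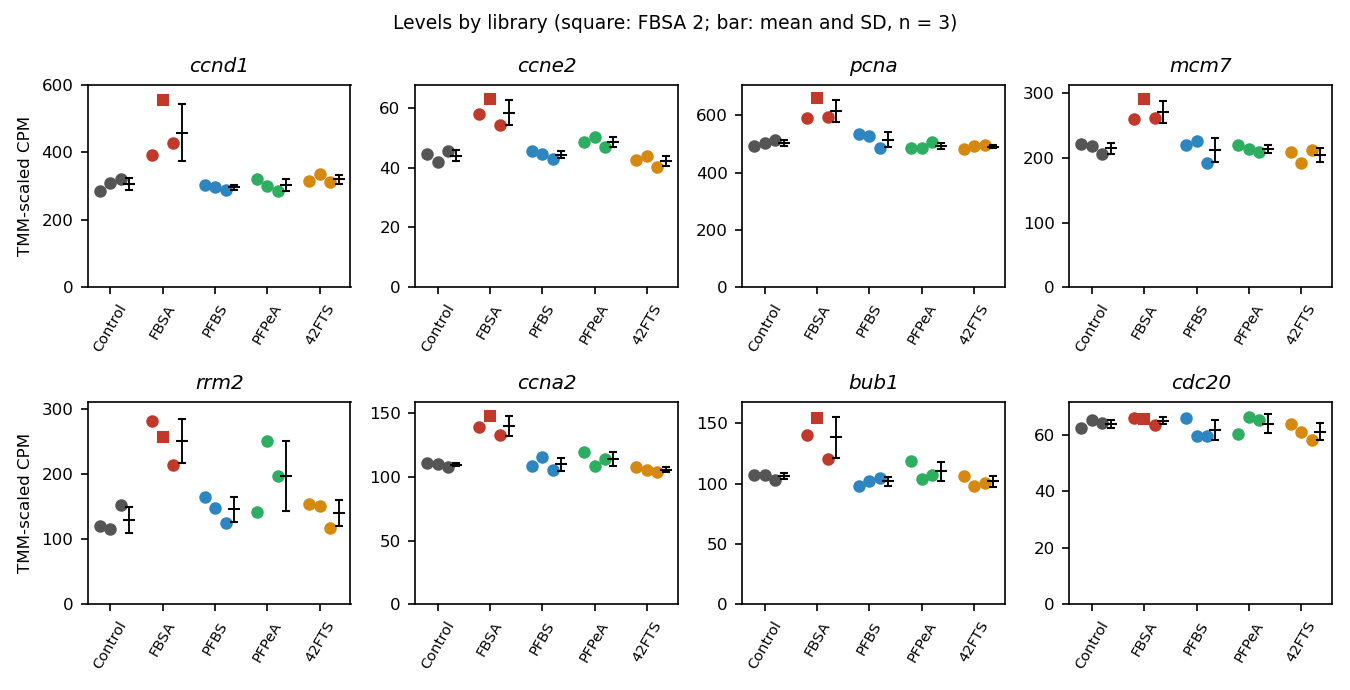
TMM-scaled CPM of 8 of the genes in each library by group, with a square for FBSA 2 and a bar for the mean and SD of 3 libraries. The FBSA libraries of ccnd1, ccne2, pcna, mcm7, ccna2 and bub1 lie above all 12 others, rrm2 is also high in PFPeA 2 at 250.0 CPM, and cdc20 lies between 58.2 and 66.4 CPM in all groups.

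Of the cyclins and kinases of mitosis 2 of 6 tested genes rose. Cyclin A2 (ccna2), which acts from S phase until the start of mitosis, was at 111, 111 and 108 CPM in the controls and at 139, 148 and 133 CPM with FBSA. The FBSA libraries lay above all 12 others, whose highest was PFPeA 1 at 120.1 CPM. The log2 change was 0.35 (SE 0.054, adjusted p = 0.00117), the smallest adjusted p of the 37 tested genes. Aurora B (aurkb), the kinase of the chromosomal passenger complex, rose from 58.1 ± 2.47 to 72.3 ± 6.63 CPM (SD, n = 3), a log2 change of 0.32 (adjusted p = 0.0127), and lost its call without Control 2 or FBSA 2.

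The cyclin B genes, whose products drive mitosis with Cdk1, were not called. The estimates were 0.10 for ccnb1 (CI -0.04 to 0.23, adjusted p = 0.383) and 0.31 for ccnb2 (CI 0.10 to 0.53, adjusted p = 0.0665). The FBSA libraries of ccnb2 all lay above the controls, while those of ccnb1 overlapped them. Aurora A (aurka), the kinase of the spindle poles, was at 37.6, 37.4 and 37.5 CPM in the controls and at 39.6, 40.9 and 37.1 CPM with FBSA, an estimate of 0.06 (CI -0.07 to 0.20, adjusted p = 0.608). The central kinases of mitosis, cdk1 and plk1, each have a suffixed copy. The exact entry of cdk1 ranged from 5.54 to 23.2 CPM within the controls. Its copy held at most 6 reads in a library, and with it added the controls still ranged from 5.53 to 23.1 CPM. The exact entry of plk1 held at most 8 reads in a library and was not tested.

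Of the 3 genes of the spindle checkpoint and its target, bub1 rose. The checkpoint kinase gene bub1 was at 108, 108 and 103 CPM in the controls and at 140.3, 155 and 121 CPM with FBSA, above all 12 others. Its log2 change was 0.38 (SE 0.076, adjusted p = 0.00566), and the call held in all 15 fits that left out 1 library. The checkpoint protein gene mad2l1 had an estimate of 0.20 (adjusted p = 0.122), although its FBSA libraries also lay above all 12 others. The gene of Cdc20, the activator of the anaphase-promoting complex that the checkpoint holds back, was at 62.5, 65.4 and 64.1 CPM in the controls and at 65.9, 65.5 and 63.6 CPM with FBSA. Its log2 estimate was 0.02 (CI -0.10 to 0.15, adjusted p = 0.869), an interval that lies below the estimate for bub1.

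Of the 5 genes of chromosomes and spindle 3 rose. The topoisomerase gene top2a, which untangles sister chromatids, had a log2 change of 0.27 (adjusted p = 0.0273), with FBSA 3 at 217 CPM just below Control 1 at 218 CPM. The spindle motor gene kif11 had a log2 change of 0.29 (adjusted p = 0.0198). The proliferation marker mki67 rose from 311 ± 13.7 to 358 ± 30.7 CPM (SD, n = 3), a log2 change of 0.20 (adjusted p = 0.0478), and kept its call in 3 of the 15 fits that left out 1 library. The call of top2a was lost without Control 2, Control 3, FBSA 1 or FBSA 2, and that of kif11 without Control 1, Control 2 or FBSA 2. The passenger protein gene birc5a (survivin) and the kinetochore gene cenpf had estimates of 0.22 and 0.24 (adjusted p = 0.123 and 0.0678), with all FBSA libraries above all controls.

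**Figure D3:**
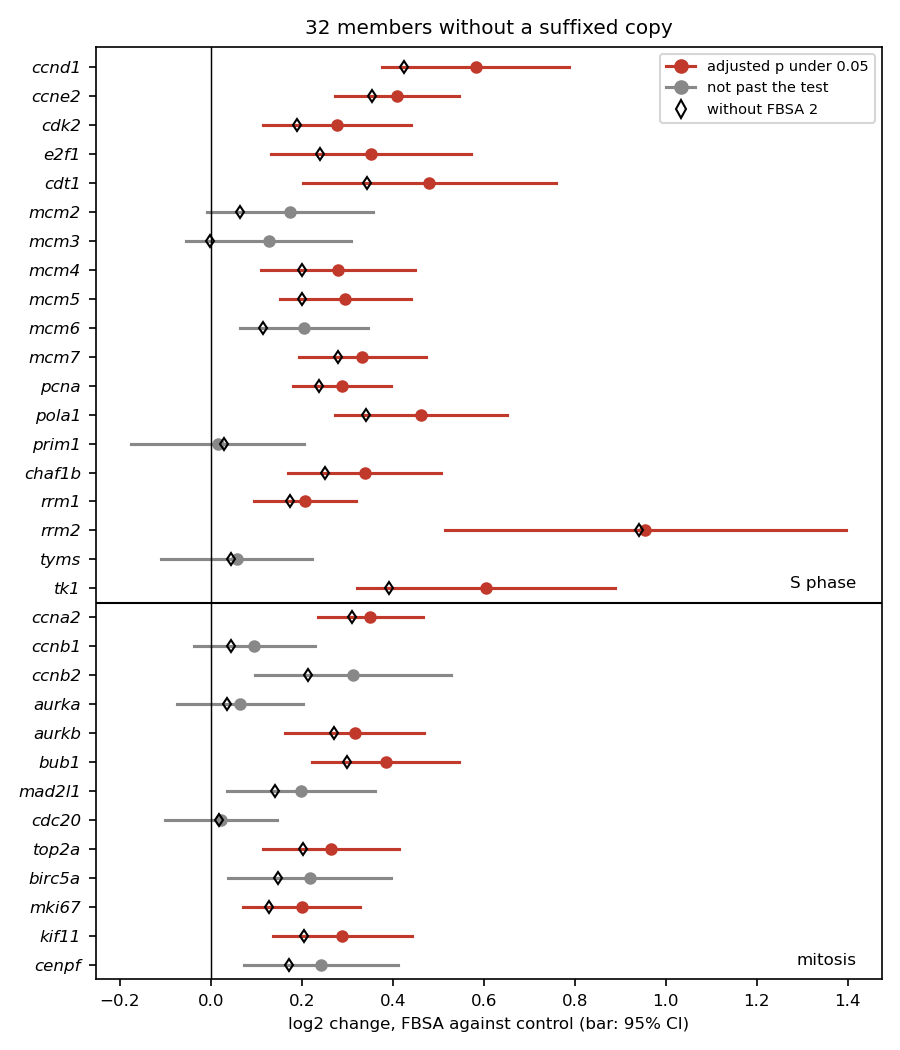
Log2 change from the control to FBSA with its 95% CI for the 32 genes without a suffixed copy, in red where the adjusted p was under 0.05. All 32 estimates lie above 0, from 0.02 for prim1 to 0.96 for rrm2, and the open diamonds, which mark the estimate without FBSA 2, lie to the left of it for most genes.

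FBSA 2 was the highest of the 3 FBSA libraries for 32 of the 37 tested genes, against 8678 of all 23874. Over the 37 genes the median log2 difference from the control mean was 0.23 in FBSA 1, 0.43 in FBSA 2 and 0.17 in FBSA 3. The S phase genes without a copy had medians of 0.23, 0.44 and 0.24 in FBSA 1 to 3, and the mitosis genes without a copy had medians of 0.22, 0.38 and 0.15. In each of the 12 libraries of the other groups the median of either set lay between -0.06 and 0.05. Without FBSA 2, 9 genes rose: ccnd1, ccne2, mcm5, mcm7, pcna, pola1 and tk1 of S phase, and ccna2 and bub1 of mitosis. All 9 were also among the 20 called with all libraries, and 2.56% of all genes tested rose in that fit. The calls of 7 genes held in all 15 fits that left out 1 library, those of ccnd1, ccne2, mcm7, pcna, pola1, ccna2 and bub1.

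The acids gave no call for these genes. Against the control, 0% of all genes tested were called for PFBS, 0% for PFPeA and 0% for 42FTS in edgeR's test, and none of the 37 members was called in any of the 3 comparisons by edgeR or by DESeq2. Over all genes DESeq2 called 6, 15 and 12. At an unadjusted p under 0.05, edgeR found 1 member for PFBS, 2 for PFPeA and 0 for 42FTS, among 925, 1243 and 972 genes of all tested. The median log2 change over the members was -0.01 for PFBS, 0.02 for PFPeA and -0.04 for 42FTS. Over the 32 genes without a copy, the intervals reached from -0.42 to 0.61 for PFBS, from -0.27 to 1.04 for PFPeA and from -0.40 to 0.56 for 42FTS. For ccnd1 the interval was -0.25 to 0.16 with PFBS, -0.22 to 0.19 with PFPeA and -0.14 to 0.27 with 42FTS. For pcna it was -0.07 to 0.14, -0.14 to 0.08 and -0.14 to 0.07. The 1 member under the unadjusted threshold for PFBS was gmnn, which has a suffixed copy, with a log2 estimate of 0.52. Its PFBS libraries were at 3.9, 4.3 and 3.9 CPM, its controls at 3.1, 2.8 and 2.6 CPM and its FBSA libraries at 3.4, 3.9 and 4.7 CPM. The 2 members under the unadjusted threshold for PFPeA were rrm2 and ccne2.

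The PFPeA libraries of rrm2 were at 142, 250.0 and 197 CPM, of which the first lay between the controls and the others above them. The log2 estimate was 0.60 (CI 0.16 to 1.04, unadjusted p = 0.0115, adjusted p = 0.955). The ccne2 estimate with PFPeA was 0.14 (CI 0.01 to 0.28, unadjusted p = 0.0422, adjusted p = 0.955).

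The difference in response between compounds was tested directly at the shared dose of 47 uM, over all 10 pairs of groups in 1 fit. FBSA carries a sulfonamide group where PFBS, with the same perfluorobutane chain, carries a sulfonic acid. Of the 37 genes 19 were higher with FBSA than with PFBS, 12 of S phase and 7 of mitosis, and none was lower, while 5.17% of all genes were higher and 4.98% lower. Against PFPeA 12 were higher, 8 of S phase and 4 of mitosis, where 4.08% of all genes were higher and 4.18% lower. Against 42FTS 19 were higher, 11 of S phase and 8 of mitosis, where 5.69% of all genes were higher and 4.11% lower. These comparisons share the FBSA libraries and are therefore not independent of each other. With adjustment over all 10 pairs the counts were 11, 9 and 12. Over all genes 1364, 1154 and 1303 were called in either direction under it, against 2423, 1971 and 2339 without it. The fits of only the groups compared gave 8, 2 and 8, and their counts over all genes are not given here.

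Leaving out FBSA 2 took the counts to 9 against PFBS, 6 against PFPeA and 8 against 42FTS. Against PFBS the count was also 12 without PFBS 2 and 10 and 11 without the PFBS libraries a and b, whose columns share a header. Against PFPeA it was 5 without PFPeA 3, 19 without FBSA 3 and 20 by DESeq2. In that comparison DESeq2 called 2841 of all genes, against 1971 by edgeR. Against 42FTS it was 11 without 42FTS 2, 10 without 42FTS 3 and 10 without Control 3 and 42FTS 2. Counts over all genes are not given for the fits that left out libraries, so a general loss of calls cannot be told apart.

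For ccnd1 the log2 difference of FBSA was 0.63 from PFBS (SE 0.096, adjusted p = 0.00129), 0.60 from PFPeA (SE 0.096, adjusted p = 0.00214) and 0.52 from 42FTS (SE 0.096, adjusted p = 0.00452). For ccna2 it was 0.35, 0.29 and 0.41 (adjusted p = 0.00123, 0.00462 and 0.000438). The rrm2 level was higher with FBSA than with PFBS by 0.78 and than with 42FTS by 0.83 (adjusted p = 0.0307 and 0.0244). From PFPeA rrm2 differed by 0.35 (CI -0.08 to 0.79, adjusted p = 0.328), which did not pass the test. Between the acids edgeR called no member and 0% of all genes in each of the 3 pairs. At an unadjusted p under 0.05 it found 0 members for PFBS against PFPeA, 1 for PFBS against 42FTS and 2 for PFPeA against 42FTS, among 1154, 1047 and 1629 genes of all tested. DESeq2 called no member in these pairs and 14, 11 and 24 genes of all tested. For rrm2 the log2 difference of PFPeA was 0.48 from 42FTS (CI 0.04 to 0.92, adjusted p = 0.702), and PFBS differed from PFPeA by -0.43 (CI -0.87 to 0.01, adjusted p = 0.987).

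A test for any difference over the 5 groups called 13 of the 37 genes, 9 of S phase and 4 of mitosis, against 6.38% of all genes. They were ccnd1, ccne2, cdt1, mcm5, mcm7, pcna, pola1, rrm2 and tk1 of S phase and ccna2, aurkb, bub1 and kif11 of mitosis. Without FBSA 2 the test called 5, and the count over all genes is not given for that fit. All 3 FBSA libraries lay above all 12 others for 16 members, 11 of S phase and 5 of mitosis, as they did for 5.89% of all genes tested.

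The 7 genes with a suffixed copy were ccne1, cdc6, gmnn, orc1 and pole of S phase and cdk1 and plk1 of mitosis. Beside each exact symbol the table has a second entry with the suffix _1, and reads of 1 gene could be split between such entries, so these genes are reported as uncertain. Of the 7, 5 were tested and none was called with FBSA by edgeR or DESeq2. At an unadjusted p under 0.05 edgeR and DESeq2 each found 1 of the 5, near the share over all genes tested, 5656 and 5769 of 23874. Over the 12 libraries without FBSA, the coefficient of variation of the 7 exact entries ran from 20.9% to 346% with a median of 54.8%. For the 32 genes without a copy it ran from 2.83% to 25.0% with a median of 5.21%. The mean level was 0.00536 to 11 CPM for the 7 and 15.6 to 501 CPM for the 32, so copy and level cannot be told apart here. In the whole table the median was 31.1% for 6708 tested entries with a copy or a suffix and 12.3% for the other 17166. These entries were not matched for level either.

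The suffixed entry of plk1 ranged from 5.09 to 40.6 CPM over the 12 libraries, and that of cdc6 from 4.22 to 14.5 CPM. With the copy added to the exact entry, plk1 still ranged from 5.11 to 40.7 CPM and cdc6 from 4.22 to 14.5 CPM. Adding the copies to the exact entry before the fit gave no call for any of the 7. The summed estimate was 0.60 for ccne1 (SE 0.290, adjusted p = 0.199), -0.03 for orc1 (SE 0.150, adjusted p = 0.929) and 0.23 for gmnn (SE 0.161, adjusted p = 0.396). It was -0.14 for cdc6 (SE 0.695, adjusted p = 0.93), 0.60 for plk1 (SE 0.929, adjusted p = 0.755) and 0.55 for pole (SE 0.434, adjusted p = 0.475). For cdk1 it was -0.24 with an SE of 0.749, so a change of the size seen in ccna2 was not detectable in that entry.

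The authors' deposited table of differential expression lists only genes with an FBSA q-value (Q) under 0.05, 1909 genes in all, of which 1126 were higher. It holds 18 of the 39 genes, 12 of S phase and 6 of mitosis, and gives all 18 as higher with FBSA. The list shares 16 genes with the 20 called from the counts, which is 88.9% of the 18 and 80% of the 20. Both sets rest on the same libraries. In the authors' deposited table alone are cdc6 and plk1, and called only from the counts are cdk2, e2f1, mki67 and rrm1.

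For cdc6 the authors' deposited table gives a log2 change of 0.65 with Q = 1.34e-06. From the counts with its copy added, cdc6 had an estimate of -0.14 (SE 0.695, adjusted p = 0.93). Its deposited TPM, a level scaled by transcript length and library, were 26.8, 26.1 and 28.0 in the controls and 36.6, 48.6 and 37.0 with FBSA in the authors' deposited table. The 9 libraries of the acids lay between 27.0 and 31.8 TPM, below all FBSA libraries. Over the 12 libraries without FBSA the deposited TPM of cdc6 had a coefficient of variation of 6.28%. Its counts with the copy added ranged from 4.22 to 14.5 CPM over these libraries. The estimates from the counts and from the authors are thus not like measures of cdc6, and why they differ was not tested. For plk1 the authors' deposited table gives a log2 change of 0.31 with Q = 0.00598. Its deposited TPM were 82.2, 78.4 and 84.9 in the controls and 94.1, 108 and 90.1 with FBSA, while the acids reached no higher than 87.5 TPM. Deposited TPM exist only for genes with an FBSA Q under 0.05. The separation of FBSA in cdc6 and plk1 is therefore no independent support for a rise, and its share over all genes is not given here. By this scale, which can be compared between genes, pcna had the highest control level of the 18 genes at 465 ± 14.1 TPM (SD, n = 3) and cdt1 the lowest at 13.4 ± 2.26 TPM (SD, n = 3).

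**Figure D4:**
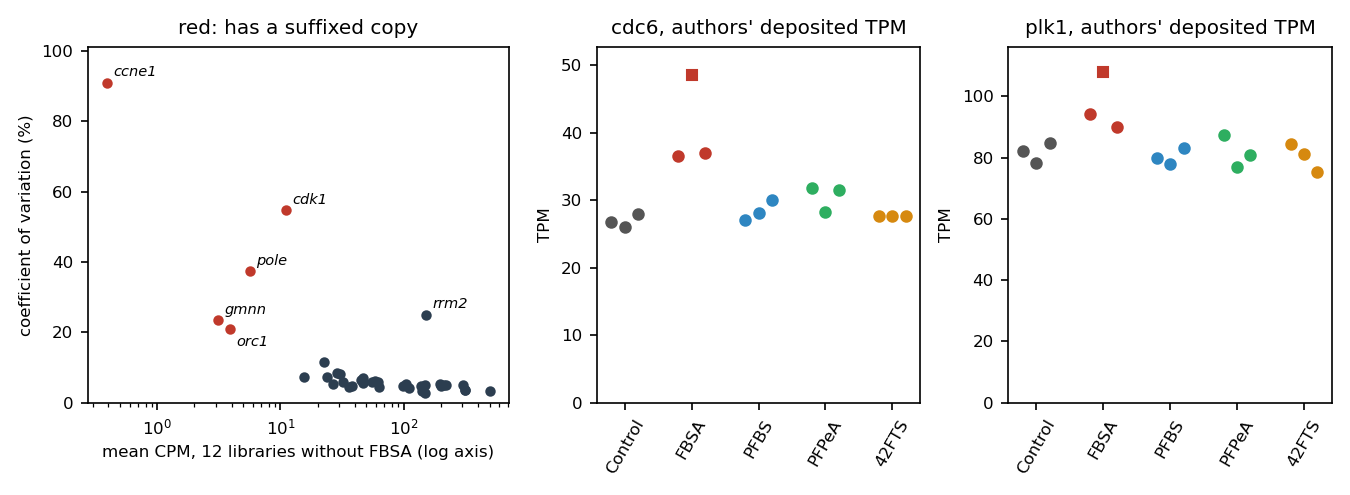
Left, coefficient of variation over the 12 libraries without FBSA against mean CPM (log axis) for the 37 tested genes, red where a suffixed copy exists, with medians of 54.8% over all 7 genes with a copy and 5.21% over those without. Middle and right, the authors' deposited TPM of cdc6 and plk1 in each library, with a square for FBSA 2, where the lowest FBSA library (36.6 and 90.1 TPM) lies above all others. Both genes have deposited TPM only because they passed the authors' test for FBSA, so this separation is no independent support.

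Further genes of the same pathways were read from fixed lists. The lists were chosen with earlier results of these data known, so their shares against all genes are not an independent test. Of 56 tested genes of other S phase functions 13 rose with FBSA and none fell, with a median log2 change of 0.16, where 5.28% of all genes rose. Among those that rose the largest changes were in e2f8, a repressor of the E2F family (0.64, adjusted p = 0.00214, suffixed copy), the fork helicase genes gins4 (0.57, adjusted p = 0.0101) and cdc45 (0.44, adjusted p = 0.0205), and the pocket protein gene rbl1 (0.44, adjusted p = 0.0149). The gene uhrf1, which helps to keep DNA methylation through replication, rose by 0.30 (adjusted p = 0.0465). The count of 13 was 6 when Control 1 or Control 2 was left out, 7 for Control 3 and 3 for FBSA 2. The share of all genes that rose was 3.03% to 3.3% in the fits lacking a control library. It was 2.56% in the fit lacking FBSA 2.

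Of 62 tested genes of other mitotic functions 19 rose and none fell, with a median of 0.27, against the same 5.28%. Among those that rose the largest changes were in the condensin gene ncapd3 (0.68, adjusted p = 0.00217, suffixed copy), cdca7a (0.60, adjusted p = 0.0047), the kinetochore gene nuf2 (0.54, adjusted p = 0.00174) and the phosphatase gene cdc25b, which activates Cdk1 (0.53, adjusted p = 0.002). Among transcription factors of the later cycle, mybl2b rose by 0.30 (adjusted p = 0.02) and foxm1 had an estimate of 0.16 (adjusted p = 0.228). The count of 19 went to 12 when Control 2 was left out, to 10 for Control 3 and to 9 for FBSA 2. Of all genes 3.12%, 3.3% and 2.56% rose in these fits.

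Of 24 tested genes that restrain the cycle 4 rose and none fell, with a median of 0.28, against 5.28% that rose among all genes tested. They were btg2, an antiproliferative gene (0.69, adjusted p = 0.00221), gadd45aa, a stress gene (0.58, adjusted p = 0.0446), cdkn1ca, an inhibitor of cyclin-dependent kinases (0.54, adjusted p = 0.000645), and tob1b, a relative of btg2 (0.40, adjusted p = 0.0451). The level of btg2 was 189.8 ± 9.22 CPM in the controls and 306 ± 46.7 CPM with FBSA (SD, n = 3). The FBSA libraries of btg2 and cdkn1ca lay above all those of the acids, while those of tob1b overlapped PFPeA. For gadd45aa the controls were at 4.02 to 4.34 CPM and the FBSA libraries at 5.29 to 7.42 CPM. Each acid overlapped FBSA there, with PFBS at 4.46 to 5.4, PFPeA at 5.47 to 5.82 and 42FTS at 4.31 to 6.62 CPM. The inhibitor gene cdkn1a (p21) was at 7.72 ± 1.40 and 12.6 ± 2.74 CPM (SD, n = 3), an estimate of 0.71 (CI -0.09 to 1.52) that did not pass the test (adjusted p = 0.275). The count of 4 was 2 without any 1 of Control 1, Control 2, Control 3, FBSA 3, PFBS 2, PFBS a, PFBS b, PFPeA 2 or 42FTS 3. Of all genes 3.03% (without Control 1) to 5.01% (without PFBS b) rose in these fits. The count was 7 without PFPeA 1, where 5.2% of all genes rose, and 7 by DESeq2. Over all genes 1590 rose by DESeq2, against 1260 by edgeR.

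The authors' deposited enrichment table gives 25 of 105 genes of the term mitotic cell cycle among those changed by FBSA (Q = 0.000635). For regulation of cell cycle the authors' deposited enrichment table gives 23 of 110 genes (Q = 0.00417), and for mitotic chromosome condensation 6 of 12 (Q = 0.0153). The term cell cycle itself has 24 of 175 (Q = 0.152), and positive regulation of the G1/S transition 6 of 16 (Q = 0.0532). For DNA replication the authors' deposited enrichment table gives 21 of 194 genes (Q = 0.421), and for DNA replication initiation 5 of 22 (Q = 0.304). The authors' deposited transcription factor table, made on human gene identifiers, gives ratios of observed to expected network objects. The ratio was 2.46 for E2F3, 2.33 for E2F7, 1.17 for E2F1 and 1.89 for FOXM1. For E2F2, E2F4, E2F5, E2F6 and E2F8 it ran from 1.37 (E2F4) to 3.67 (E2F5). Outside these families p53 had a ratio of 1.56, and that of c-Myc lay between those of E2F1 and p53. Of the factors named here, p53 and then c-Myc had the smallest p-values in that table.

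Markers of tissues, from lists also chosen with earlier results of these data known, were read in the same comparison. Of 20 tested markers of neural progenitors 8 rose with FBSA, against 5.28% of all genes, with a median log2 change of 0.33. The count was 4 in a fit of the control and FBSA libraries alone and 4 without Control 3 and 42FTS 2. Over all genes 606 and 734 rose in these fits, against 1260 with all libraries. The summed level of the list was 2455 to 2873 CPM against 2076 to 2296 CPM in the controls. The proneural genes ascl1a and neurog1 rose by 0.99 and 0.78 (adjusted p = 0.00945 and 0.0125) and notch1a, a receptor that maintains progenitors, by 0.59 (adjusted p = 0.00964), while fabp7a had an estimate of -0.24 (adjusted p = 0.327). Of 18 neuron markers 11 fell, against 4.25% of all genes, with a median of -0.32, and 5 fell in the fit of the control and FBSA libraries alone. That fit called 855 of all genes in either direction, 606 of them higher, against 2274 and 1260 with all libraries. The summed level of the neuron markers was 3376 to 3903 CPM against 4344 to 4433 CPM in the controls. The RNA-binding protein gene elavl4 fell by 0.63 (adjusted p = 0.000213), the tubulin gene tubb5 by 0.45 (adjusted p = 0.00321) and islr2, which has a suffixed copy, by 0.55 (adjusted p = 0.0444), while elavl3 had an estimate of 0.12 (adjusted p = 0.0911). For islr2 the controls were at 17.4, 18.6 and 29.5 CPM, against 14.2 to 16.1 CPM with FBSA, so the size of the fall leans on 1 control.

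By library the progenitor markers had median log2 differences of 0.13, 0.58 and 0.22 in FBSA 1 to 3 and the neuron markers of -0.19, -0.49 and -0.27. In the libraries of the other groups the progenitor medians ran from -0.107 to 0.155 and the neuron medians from -0.0583 to 0.102. For the progenitor markers FBSA 1 lay below PFPeA 1, which was at 0.155. FBSA 2 was thus the most distant library for both lists, as for the cell cycle genes. Of 15 skeletal muscle markers 2 fell, where 4.25% of all genes fell, and the median of the list was -0.01. They were the actin genes acta1b, which fell by 0.80, and acta1a, which fell by 0.58 (adjusted p = 0.00189 and 0.000448). The muscle genes of highest level, atp2a1 and ckmb, had estimates of 0.10 and 0.09 (adjusted p = 0.3 and 0.297), and the summed muscle level was 49854 to 55615 CPM against 54485 to 54602 CPM.

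None of 8 red cell markers passed edgeR's test, and DESeq2 called 1, near its share over all genes tested, 3096 of 23874. At an unadjusted p under 0.05 edgeR found 2 of the 8, a share near that of all genes tested, 5656 of 23874. The red cell genes of highest level, hbae3 and hbbe1.1, had estimates of -0.25 and 0.11 (adjusted p = 0.26 and 0.897), and the summed level was 3578 to 4699 CPM against 4023 to 4983 CPM in the controls. Of 11 skin markers 4 rose, against 5.28% of all genes, among them anxa1b by 1.46 and cldne by 0.98 (adjusted p = 6.48e-06 and 0.000276). The keratin genes krt4, which has a suffixed copy, and cyt1 had estimates of -0.26 and 0.10 (adjusted p = 0.751 and 0.474). The summed skin level was 10050 to 13600 CPM against 10173 to 15451 CPM. No marker in the table was at 0 in all libraries. The part of these tissues in the changes of the cell cycle genes was not tested.

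**Figure D5:**
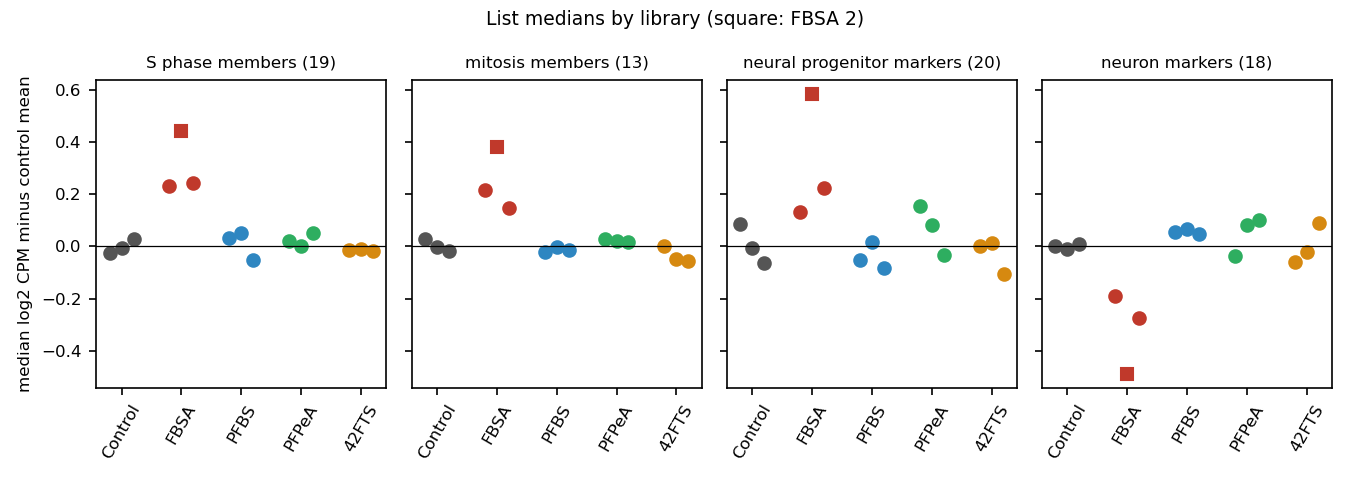
Median log2 CPM of each list in each library, as the difference from the control mean, for the S phase and mitosis genes without a suffixed copy and for the neural progenitor and neuron markers. FBSA 2, the square, is the highest of all libraries for the first 3 lists at 0.44, 0.38 and 0.58 and the lowest for neuron markers at -0.49. For the progenitor markers FBSA 1 lies below PFPeA 1.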

How the data were processed

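Messenger RNA of 15 pools of 10 whole embryos was sequenced after oligo(dT) selection on a BGISEQ-500 instrument, per the labels' protocols. The authors deposited whole-number read counts per gene symbol, not normalized. Per the submitters' processing notes, the tools were Bowtie2, DESeq2, HISAT2, HTSeq and RSEM and the build was GRCz11, with neither versions nor roles. The sources used here do not give whether counting used strand. The authors' deposited FBSA gene table gave TPM, log2 fold changes and q-values, per the file headers, and 45 further columns of values per sample or group average were not used. The authors' deposited enrichment and transcription factor tables gave gene numbers, p-values, q-values and ratios, per the file headers, and how they were computed is otherwise not given here.

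From the counts, entries were kept with edgeR 4.0.16 (filterByExpr) in R 4.3.3, scaled by trimmed mean of M-values and fitted by robust quasi-likelihood over all 15 libraries with a term for group and no other. The two-sided F-test was applied to 10 pairs of groups and to all 5 groups together, with Benjamini-Hochberg adjustment over the 23874 genes tested and a threshold of 0.05. Lines of the table for reads not counted to any gene, 33.4% to 36.3% of reads per library, entered neither totals nor tests. Of all reads 14.3% to 15.7% did not align uniquely, 6.32% to 9.94% did not align and 11.5% to 12.5% aligned outside genes. A pair of PFBS columns shares a header and is called PFBS a and PFBS b, without a number. Library medians use log2 CPM with a prior count of 2. Alternatives were DESeq2 1.42.0, its size factors, no filter, fits of the compared groups only, a replicate block, copies added, joint adjustment and leaving out libraries. Replicates of 1 group differed beyond sampling noise, with a chi-square per gene of 10.7 to 21.3.

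The 39 genes and the lists were chosen with earlier results of these data known. All 39 genes are named; of the other lists, the 4 largest called changes with a mean of at least 1 CPM and cdkn1a, mybl2b, foxm1 and uhrf1; of marker lists, the 2 largest called changes and the 2 highest levels. Sequences are not printed.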

Additional observations from a re-analysis of the deposited data

How the results depend on the processing

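For FBSA against the control, 20 members were called, with 17 under a replicate block (which leaves out PFBS), 18 without a filter, 19 with DESeq2 size factors, and 22 with DESeq2 or with copies added. Of all genes 2274 were called, and 2035, 1954, 2276, 3096 and 2650 under these settings in the same order. Under the block the genes that restrain the cycle went from 4 called to 2. Same-numbered libraries showed no shared deviation over all genes, with 0 of 18 correlations over 0.1 (-0.0639 to 0.0857). A pairing that moves few genes would not show in these correlations, so whether the numbers pair samples is not settled. A fit of only the groups compared gave 7 members against the control (5 of S phase and 2 of mitosis), 8 against PFBS, 2 against PFPeA and 8 against 42FTS, with 4 other S phase genes, 8 other mitotic genes, 4 progenitor and 5 neuron markers. Without Control 3 and 42FTS 2 it was 12 members, 2 of mitosis, and 10 against 42FTS, with 4 other S phase genes, 10 other mitotic genes, 2 brakes and 4 progenitor markers. Adjustment over all 10 pairs gave 13, 11 and 12 members against the control, PFBS and 42FTS, 9 of S phase, 6 other S phase genes, 12 other mitotic genes and 2 brakes. DESeq2 gave 20 members against PFPeA and 7 brakes, and no filter gave 2 brakes. Leaving out 1 library gave 9 to 20 members against the control (7 to 14 of S phase, 2 to 6 of mitosis), 9 to 21 against PFBS, 5 to 19 against PFPeA, 8 to 20 against 42FTS and 5 to 13 over the 5 groups. For the other lists it gave 3 to 13 S phase genes, 9 to 26 mitotic genes and 2 to 7 brakes. Over all genes, 1020 to 2274 were then called for FBSA against the control, and 855 in the fit of only those groups. For the other comparisons, counts over all genes are not given for the fits that left out libraries or held only the groups compared. A general loss or gain of calls cannot be told apart there. Why the counts differed between settings was not tested.

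Under each of these settings 0 members were called for each acid against the control (the block was not run for PFBS). The median log2 change of FBSA, 0.30 for S phase and 0.23 for mitosis, was lowest without FBSA 2, at 0.238 and 0.16. Estimates that changed sign were not called in any fit. Leaving out 1 library gave -1.5 (without FBSA 1) to 0.927 for ccne1, with -0.243 without Control 2 and -0.592 under the block. It gave -0.00128 (without FBSA 2) to 0.214 for mcm3, -0.0424 (without Control 1) to 0.0735 for prim1, and -0.0082 (without Control 3) to 0.158 for tyms, with -0.00317 without Control 3 and 42FTS 2. For cdk1 it gave -1.11 to 0.256 (without Control 2), with 0.155 without FBSA 1. For hbbe1.1 it gave -0.232 (without FBSA 3) to 0.309, with -0.052 without Control 1. For krt4 it gave -0.574 to 0.0494 (without Control 2), with 0.018 with copies added.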
